A study of Mus musculus with 6 samples.

Results

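Ribosome biogenesis and RNA polymerase I genes were examined in bulk RNA-Seq of donor CD8+ T cells recovered from the BM after BMT. Members were the listed gene symbols beginning with Nop, Utp, Rrp or Nol and a digit, or with Polr1 or Mrto, together with Myc, Ncl, Fbl, Dkc1, Bop1, Pes1, Wdr12 and Odc1 by full symbol. The rule found 50 of the 14051 genes in the table. It also names Npm1, which is not among those 14051 genes, so it was not analysed here. The rule uses symbols and no expression value, although it was written with earlier results of these data known. Of the 50, Nol3 and Nol4l match the symbol pattern without being assembly factors for ribosomes that are well established, and they are kept apart below.

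All recipients were B6D2F1 mice given total body irradiation and B6.CD45.1+ donor T cells purified by CD3. The 3 GC-treated libraries came from recipients injected with dexamethasone, a synthetic glucocorticoid (GC), at 5 mg/kg/day from day -1 to day 5. The 3 vehicle-treated libraries came from recipients given its carrier, methyl-β-cyclodextrin, over the same days. On day 5 an i.v. anti-CD45 antibody marked cells inside vessels, and marked CD45.1+CD8+ cells were sorted from BM pooled over several mice. Whether the libraries came from separate pools is not stated, so p values measure only the spread between these libraries. No untransplanted or untreated CD8+ T cells were analysed here.

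A ribosome is built in the nucleolus. RNA polymerase I copies the rRNA genes into 1 long precursor, small nucleolar ribonucleoproteins (snoRNPs) guide its methylation and pseudouridylation, and a large set of assembly factors cuts, folds and packs it into the 40S and 60S subunits. T cells entering division enlarge the nucleolus and raise this machinery, in which MYC drives transcription at many steps. RNA-Seq of oligo(dT)-primed cDNA reads the mRNAs of these factors and not the rate of rRNA synthesis.

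Depth over the listed genes was 60949593 to 76888118 reads per library, and values are normalized counts, that is reads divided by the authors' size factor for the library. The CD8 T cell markers were high in every library, with Cd8a at 63285 to 93850. Markers of neutrophils were present in unequal amounts. Their summed level over 10 tested genes ran from 1840 to 12746 in the GC-treated libraries and from 469 to 4302 in the vehicle-treated libraries, with Mmp8, Ltf and Retnlg at 0 in vehicle-treated 1. By replicate number, the median log2 deviation of that list was -0.65, 2.55 and 2.14 with GC and -2.81, -2.25 and 1.12 with vehicle. In bulk samples fewer cells of a type and less RNA per cell cannot be told apart. Tsc22d3 and Fkbp5, which glucocorticoids raise in many cell types, were looked at after their values were known, so they do not test the labels. Both had lower means with the GC label, at 3159 ± 1587 against 3456 ± 1141 for Tsc22d3 and 17443 ± 3310 against 26288 ± 5844 for Fkbp5 (normalized counts, SD, n = 3 per group). Groups and directions below are those of the sample labels, which were not tested here.

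Ribosome biogenesis mRNAs were abundant, and their levels differed little between the labelled groups. Of the 50 members, 49 reached a normalized count of 10 in 3 or more libraries and were tested, with 11649 genes in all, by limma on log2(normalized count + 1). None of the 49 was higher and none was lower with GC at an adjusted p under 0.05, and their adjusted p ran from 0.62 to 0.99. The background was the same, since 0% of all tested genes were called higher and 0% lower. At an unadjusted p under 0.05, 2 members were higher, Nop56 and Rrp7a, which is 4.08% of members against 2.12% of all tested genes. In the other direction 0 members were lower at that threshold, against 5.07% of all tested genes. With edgeR on the recovered reads the same 2 of 49 members were higher at an unadjusted p under 0.05, against 2.27% of all genes, and 0 were lower, against 3.79%. With DESeq2, which tested all 50 members, 4 were higher, Rrp8 and Rrp15 being added, against 2.41% of 14034 genes, and 0 were lower, against 4.63%.

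The size of a difference was better bounded for these genes than for most. For 45 of the 49 members (91.8%) the 95% interval of the fold change lay within 1.5-fold in either direction, against 59.1% of all tested genes. The 4 members whose interval reached past 1.5-fold were Rrp15, Utp20, Nol4l and Utp14b. The median standard error of a member's log2 fold change was 0.11, against 0.14 over all tested genes, and the median level was 6032 normalized counts, against 1997. The median SD of log2 values within a group was 0.15 for members and 0.18 for all tested genes.

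The fold changes were mostly small and positive. A log2 fold change above 0 was found in 37 of 49 members (75.5%), against 48.5% of all tested genes, with a median of 0.07 against -0.01. The lowest was -0.94, for the low gene Utp14b, which DESeq2 put at -0.077, and the highest was 0.29, for Rrp15. That count depended on GC-treated 3. Without that library 26 of 49 members were above 0, against 50.2% of all tested genes. The members' median was then 0.02, against 0.00056 over all tested genes. Removal of each other library gave 31 to 39 members above 0. All 3 GC-treated values lay above all 3 vehicle-treated values in 4 members (8.16%), Rrp7a, Utp11, Rrp15 and Nop53, against 6.4% of all tested genes. The opposite arrangement was found in 0 members, against 6.4% of all tested genes.

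**Figure D1:**
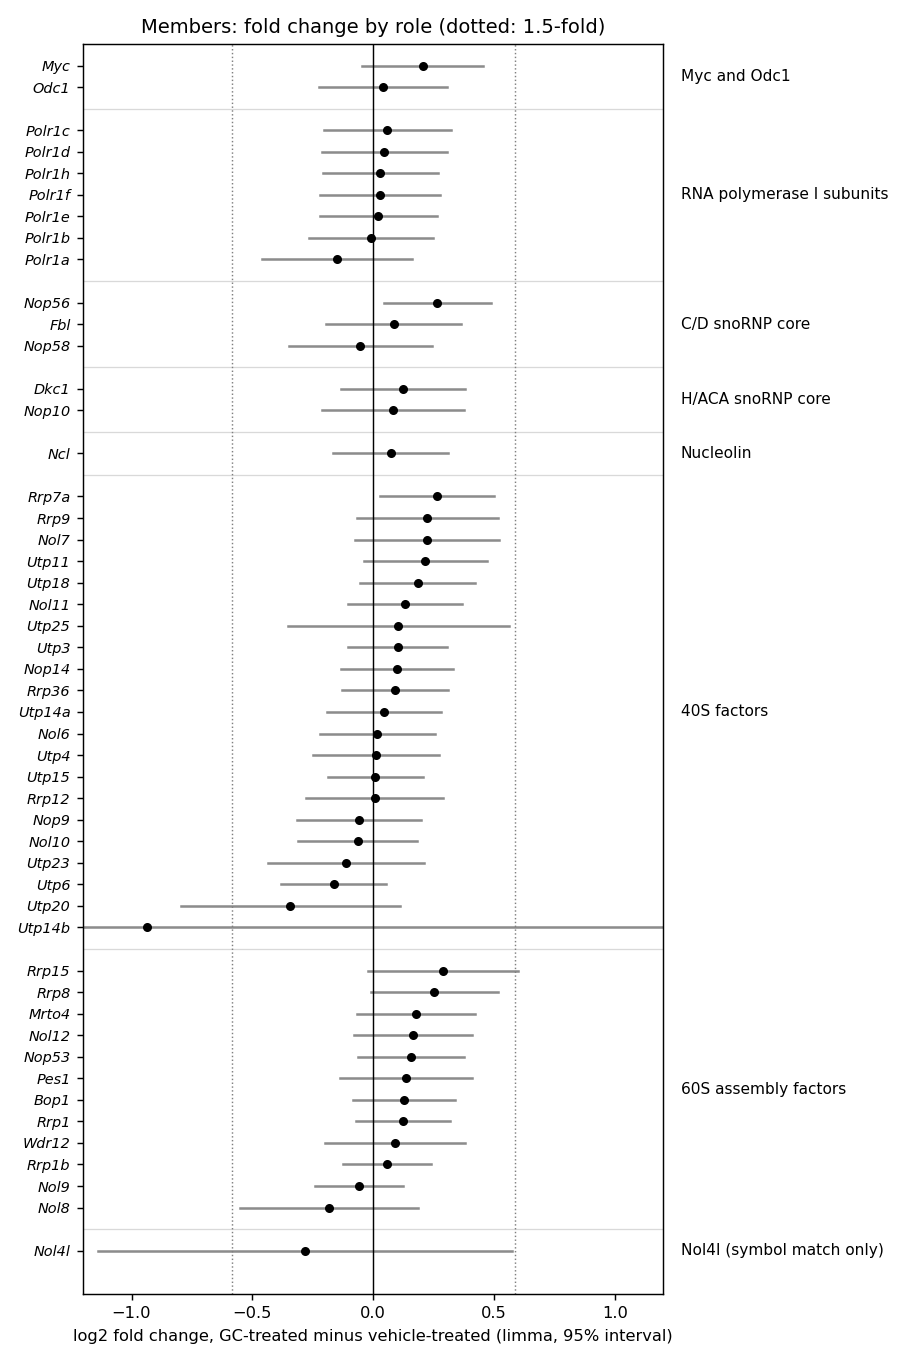
Log2 fold change of each of the 49 tested members, GC-treated minus vehicle-treated on the log2(normalized count + 1) scale, grouped by role. Points are limma estimates from 3 against 3 libraries, lines are 95% intervals and dotted lines mark 1.5-fold. The intervals of Nop56 and Rrp7a lie above 0, all others include 0, and that of Utp14b runs past both ends of the axis.

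The sequences upstream of the members that passed an unadjusted p of 0.05 are shown because MYC, which drives many genes of this pathway, binds the E-box CACGTG. They come from RefSeq on GRCm38.p6, an earlier build than the GRCm39 used for the gene positions, where 38 of the 50 members had 47 promoter windows of 300 bases, from 250 before to 50 after the start. The 250 bases before the start are printed 5′ to 3′ on the gene's strand, with CACGTG in capitals, for Nop56 at chr2:130274162-130274411 (forward) and for Rrp7a at chr15:83122802-83123051 (reverse).
Nop56: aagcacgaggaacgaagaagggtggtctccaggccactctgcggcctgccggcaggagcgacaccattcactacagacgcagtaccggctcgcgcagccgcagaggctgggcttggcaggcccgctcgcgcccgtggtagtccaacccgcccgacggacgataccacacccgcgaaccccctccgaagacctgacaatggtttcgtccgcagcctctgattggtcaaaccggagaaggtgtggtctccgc
Rrp7a: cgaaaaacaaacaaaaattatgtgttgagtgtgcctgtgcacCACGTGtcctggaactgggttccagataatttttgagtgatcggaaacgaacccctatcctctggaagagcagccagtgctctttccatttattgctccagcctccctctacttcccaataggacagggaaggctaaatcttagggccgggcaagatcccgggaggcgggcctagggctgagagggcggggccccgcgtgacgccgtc

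The Rrp7a window held 1 CACGTG, whose first base lies 208 bases before the start, and the Nop56 window held none. CACGTG reads the same on both strands. It was found in 10 of the 47 member windows (21.3%), against 9.54% of 13854 windows of listed genes and 7.15% of 32851 windows in all, and these belonged to 8 members, Rrp7a, Pes1, Nol11, Utp4, Utp14b, Utp18, Utp20 and Utp25. Windows of 1 gene can overlap, so they are not independent. By gene, 21.1% of the 38 members held the hexamer, against 11.3% of 10869 listed genes. Log2 fold changes were above 0 for 6 of those 8 members, much the same share as the 37 of 49 (75.5%) among all tested members. Nol11 and Utp14b are shown because both hold the hexamer before the start and their mRNA levels differed widely, at 3285 and 5.47 normalized counts per kb of coding sequence over the 6 libraries. The 40 bases around it lie at chr11:107189402-107189441 (reverse, first base 43 before the start) and chr1:78658360-78658399 (forward, 63 before the start).
Nol11: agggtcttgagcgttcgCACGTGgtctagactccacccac
Utp14b: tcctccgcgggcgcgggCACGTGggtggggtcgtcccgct

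The hexamer AGAACA, a core motif of glucocorticoid receptor binding, was searched on both strands and found in 4 of the 47 windows (8.51%), against 13% of windows of listed genes, in Pes1, Polr1a and Wdr12. By gene these were 7.89% of 38 members, against 15.3% of 10869 listed genes. A match describes letters and not binding, and no binding was measured.

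MYC, a transcription factor that raises transcription of many ribosome biogenesis genes, is placed first among the members by role. Myc lies on chromosome 15 from 61857227 to 61862223 on the forward strand of GRCm39, with 3 exons. It read 8573, 8422 and 9183 normalized counts with GC and 6870, 7102 and 8890 with vehicle, where the values of each group follow replicates 1, 2 and 3 here and below. Vehicle-treated 3 lay among the GC-treated libraries and the other vehicle-treated libraries lay below them. For Myc the log2 fold change was 0.20 (standard error 0.11, 95% interval -0.05 to 0.46, adjusted p = 0.62 from limma). Odc1, which encodes ornithine decarboxylase, the first enzyme of polyamine synthesis and a classical MYC target, read 21765, 19498 and 26023 with GC and 20368, 20825 and 23867 with vehicle. Its highest and lowest values both belonged to the GC-treated group, and the log2 fold change was 0.04 (standard error 0.12).

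The 7 listed subunits of RNA polymerase I, the enzyme that transcribes the rRNA genes, did not differ between the groups beyond the spread between libraries. Of these, 5 had log2 fold changes above 0 and 2 below, from -0.15 for Polr1a to 0.06 for Polr1c, with a median of 0.03, and the groups overlapped for every one. Polr1a encodes the largest, catalytic subunit and had normalized counts of 6157, 4410 and 4347 with GC and 5664, 5323 and 5357 with vehicle. GC-treated 1 was the highest library and GC-treated 2 and 3 were the lowest, so that the vehicle-treated values lay between them. Polr1b, the second catalytic subunit, read 6114, 5171 and 5993 with GC and 5076, 5981 and 6362 with vehicle, and its log2 fold change was -0.01 (standard error 0.11, 95% interval -0.27 to 0.25).

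Polr1c and Polr1d form the assembly platform that RNA polymerase I shares with RNA polymerase III. Polr1c read 2684, 2681 and 3253 with GC and 2624, 2650 and 2980 with vehicle. Polr1d read 8591, 7530 and 10236 with GC and 8435, 8283 and 8609 with vehicle. GC-treated 3 was highest for both genes, and GC-treated 2 was the lowest library for Polr1d. Both overlap a listed gene on the other strand, Yipf3 and Lnx2, and the kit does not mark strand, so their reads are uncertain to that extent.

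Polr1e and Polr1f encode subunits found in RNA polymerase I alone, and Polr1h a small subunit with a role in cleaving the transcript. Polr1e read 2706, 2681 and 3209 with GC and 2793, 2891 and 2762 with vehicle. Polr1f read 3287, 3738 and 3991 with GC and 3346, 3546 and 3892 with vehicle. Polr1h read 1823, 1758 and 1999 with GC and 1805, 1836 and 1816 with vehicle. For all 3 genes the highest library was GC-treated 3 and the lowest was another GC-treated library. Their log2 fold changes were 0.02, 0.03 and 0.03, each with a standard error of 0.11.

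Per kilobase of coding sequence, the scale on which levels of different genes can be set side by side, Polr1d was the most abundant subunit, with 21589 normalized counts per kb over the 6 libraries. Polr1h followed at 4985, Polr1f at 3670, Polr1c at 2709, Polr1e at 2181 and Polr1b at 1698. Polr1a was lowest at 1011. Coding length leaves out untranslated regions, so this order is approximate. Among all tested members the same measure ran from 5.47 for Utp14b to 44162 for Ncl.

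The C/D snoRNP methylates the precursor rRNA, and its 3 listed core proteins did not move together. Nop56, on chromosome 2 from 130115808 to 130121238 on the forward strand, had normalized counts of 27111, 29563 and 31506 with GC and 23161, 22965 and 27390 with vehicle. The groups overlapped in 1 pair of libraries alone, GC-treated 1 and vehicle-treated 3. The mean was 29393 ± 2203 (SD, n = 3) with GC and 24505 ± 2500 (SD, n = 3) with vehicle. The log2 fold change was 0.26 (standard error 0.10, 95% interval 0.04 to 0.49, unadjusted p = 0.024, adjusted p = 0.62 from limma). Nop56 overlaps Idh3b on the other strand. Fbl encodes fibrillarin, the methyltransferase of the complex, and read 13701, 9888 and 13270 with GC and 11278, 11459 and 11680 with vehicle. Nop58, the partner of NOP56, read 17053, 12047 and 16182 with GC and 14664, 15277 and 16559 with vehicle. Fbl and Nop58 were highest in GC-treated 1 and lowest in GC-treated 2, whereas Nop56 was higher in GC-treated 2 than in any vehicle-treated library. The log2 fold changes of Fbl and Nop58 were 0.08 and -0.05, with standard errors of 0.12 and 0.13.

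The H/ACA snoRNP converts uridines to pseudouridines. Dkc1 encodes dyskerin, its catalytic subunit, and read 17079, 17457 and 21583 with GC and 15533, 17087 and 18794 with vehicle. Nop10, its smallest core protein, read 6572, 5262 and 7531 with GC and 6145, 6210 and 5743 with vehicle. GC-treated 3 was highest for both, and the lowest library was vehicle-treated 1 for Dkc1 and GC-treated 2 for Nop10. Their log2 fold changes were 0.12 (standard error 0.11) and 0.08 (standard error 0.13). Dkc1 overlaps Mpp1 on the other strand.

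Ncl encodes nucleolin, an abundant nucleolar RNA-binding protein, and was the most highly read member. It read 102156, 83344 and 102891 with GC and 86192, 87678 and 99738 with vehicle. GC-treated 2 was the lowest of the 6 libraries and the other GC-treated libraries were the highest. For Ncl the log2 fold change was 0.07 (standard error 0.11, 95% interval -0.17 to 0.31).

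**Figure D2:**
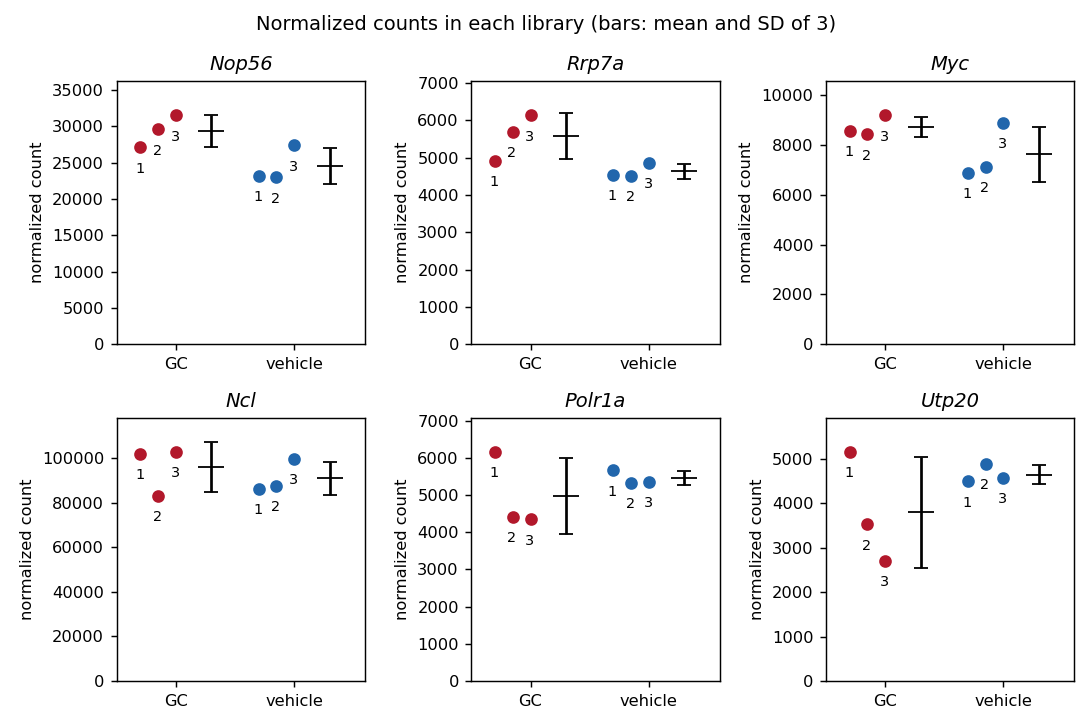
Normalized counts of Nop56, Rrp7a, Myc, Ncl, Polr1a and Utp20 in each library. Points are libraries numbered by replicate, the axis starts at 0, and bars show mean and SD over the 3 libraries of a group. The groups are apart only for Rrp7a, and Utp20 spreads from 2704 to 5155 within the GC-treated group.

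The small subunit (SSU) processome and the later 40S factors were the largest set, with 21 tested members. They process the precursor to the 18S rRNA. Log2 fold changes were above 0 in 15 and below 0 in 6, with a median of 0.05, and 1 member, Rrp7a, passed an unadjusted p of 0.05. Rrp7a, on the reverse strand of chromosome 15 (82997587 to 83007002), overlaps Serhl on the other strand. Its normalized counts were 4925, 5701 and 6138 with GC and 4545, 4508 and 4865 with vehicle. All GC-treated libraries lay above all vehicle-treated ones, with the narrowest gap between GC-treated 1 and vehicle-treated 3. The mean was 5588 ± 614 (SD, n = 3) against 4639 ± 196 (SD, n = 3). The log2 fold change was 0.26 (standard error 0.10, unadjusted p = 0.033, adjusted p = 0.62 from limma).

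Utp11, a processome component, was the other member of this set whose groups did not overlap. It read 3532, 3559 and 4402 with GC and 3268, 3177 and 3404 with vehicle, a log2 fold change of 0.22 (standard error 0.11). Rrp9, a protein that binds the U3 snoRNA, read 5869, 5885 and 7681 with GC and 5395, 5035 and 6131 with vehicle. Utp18 read 6594, 6918 and 7752 with GC and 5724, 6075 and 6940 with vehicle. In both of these genes vehicle-treated 3 lay above GC-treated 1, and GC-treated 3 was the highest library. Their log2 fold changes were 0.22 (standard error 0.13) and 0.18 (standard error 0.11).

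On the other side of 0 stood Utp20, Utp6, Utp23, Nol10, Nop9 and Utp14b. Utp20 encodes a very large scaffold protein of the processome and has the longest coding sequence of the members, 8367 bases in 62 exons on chromosome 10. It read 5155, 3526 and 2704 with GC and 4492, 4882 and 4567 with vehicle. The vehicle-treated libraries were close to each other, while GC-treated 1 lay above them and GC-treated 2 and 3 below. For Utp20 the log2 fold change was -0.34 (standard error 0.20, 95% interval -0.80 to 0.11, adjusted p = 0.62 from limma). Utp6 read 8459, 7191 and 7962 with GC and 8107, 9075 and 9259 with vehicle, a log2 fold change of -0.16 (standard error 0.10).

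The 2 copies of Utp14, whose product activates the DHR1 helicase that releases U3, differed widely in level. The X-linked Utp14a read 2668 to 2971 with GC and 2540 to 2949 with vehicle, a log2 fold change of 0.05 (standard error 0.10). The retrogene copy Utp14b, which overlaps Acsl3 on chromosome 1 on the same strand, had normalized counts of 22.5, 14.9 and 0 with GC and 9.82, 11.9 and 17.7 with vehicle. The 0 in GC-treated 3 allows a normalized count of up to 2.76, the value of 3 reads, which covers counting error only. GC-treated 1 was the highest library and GC-treated 3 the lowest. Its fitted log2 fold change of -0.94 (standard error 1.26) depends on the pseudocount and turned to 0.49 without GC-treated 3. DESeq2 gave -0.077 and edgeR -0.075 for Utp14b. Its reads cannot be told apart from those of Acsl3 where the exons overlap.

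The remaining 40S factors had log2 fold changes from -0.11 for Utp23 to 0.22 for Nol7. Nol11 stood at 0.13, and Utp3, Utp25 and Nop14 at 0.10 each. Rrp36 was at 0.09, Nol6 at 0.02, and Utp4, Utp15 and Rrp12 at 0.01 each, while Nop9 and Nol10 were at -0.06 each. For all of these the groups overlapped. Nol7 was at 9957 in GC-treated 3 and at 6495 to 7441 in the other libraries, and it overlaps Ranbp9 on the other strand. Nop9 overlaps Cideb and Dhrs1, and Utp4 overlaps Chtf8, also on the other strand.

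The 60S assembly factors had the highest median of the sets with more than 3 members. Of 12 tested, 10 had log2 fold changes above 0 and 2 below, with a median of 0.13, and none passed an unadjusted p of 0.05. Bop1, Pes1 and Wdr12 encode the PeBoW complex, which is needed to process the 28S and 5.8S precursors. Bop1, which overlaps Mroh1 on the other strand, read 15523, 15191 and 18355 with GC and 14736, 14507 and 15555 with vehicle. Pes1 read 7752, 7937 and 10423 with GC and 7597, 7774 and 8177 with vehicle. Wdr12 read 4390, 4004 and 5354 with GC and 3838, 4488 and 4539 with vehicle. In all 3 genes GC-treated 3 was the highest library and vehicle-treated 3 lay above both other GC-treated libraries. Their log2 fold changes were 0.13 (standard error 0.09), 0.14 (standard error 0.12) and 0.09 (standard error 0.13), and without GC-treated 3 they were 0.04, -0.00023 and -0.03.

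Rrp15 had the highest log2 fold change of all members with all libraries in the fit. It encodes a nucleolar protein of the pre-60S particle and read 3699, 3636 and 5061 with GC and 3168, 3323 and 3548 with vehicle. The groups did not overlap, but GC-treated 3 lay well above GC-treated 1 and 2, which were close to vehicle-treated 3. For Rrp15 the log2 fold change was 0.29 (standard error 0.14, unadjusted p = 0.065, adjusted p = 0.62 from limma). Without GC-treated 3 it was 0.13, below the 0.21 of Nop56 and the 0.19 of Rrp7a. Rrp8, a methyltransferase of the 28S rRNA that also takes part in rDNA silencing, read 5027, 4512 and 5838 with GC and 3956, 4566 and 4333 with vehicle. Vehicle-treated 2 lay above GC-treated 2, and the log2 fold change was 0.25 (standard error 0.12, unadjusted p = 0.057). Rrp8 overlaps Ilk on the other strand.

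Nop53, which brings the exosome to the pre-60S particle, read 10798, 11693 and 13541 with GC and 10790, 10633 and 10794 with vehicle. Its groups were apart by the difference between 10798 and 10794, far less than the spread within the GC-treated group. Mrto4, a paralogue of the ribosomal stalk protein P0 that holds its place on the precursor, had a log2 fold change of 0.18. Nol12 had 0.17 and Rrp1 0.12, with 0.06 for Rrp1b and -0.06 for Nol9. Rrp1b overlaps Hsf2bp on the other strand. Nol8 was the lowest of the set, at 3205, 2862 and 2202 with GC and 2706, 2996 and 3639 with vehicle. Its lowest library was GC-treated 3, and the log2 fold change was -0.18 (standard error 0.16).

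The symbol matches without an established place in ribosome assembly were low. Nol4l read 70.1, 92.3 and 45.0 with GC and 81.8, 95.1 and 67.8 with vehicle, with a log2 fold change of -0.28 (standard error 0.38). Nol3, which encodes an inhibitor of apoptosis known from muscle, read 0.866, 1.98 and 3.68 with GC and 0, 0 and 3.13 with vehicle, and did not pass the filter. Both groups were at or near the floor of 3 reads, so no fold is given.

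The deviations of the members were patterned by library more than by label. GC-treated 3 was the highest of the 6 libraries for 32 of 49 members (65.3%), against 28.4% of all tested genes. It was also the lowest for 6 members (12.2%), against 29.5% of all tested genes. GC-treated 2 was the highest for 0 members, against 17.5% of all tested genes, and the lowest for 15 (30.6%), against 16.7%. Vehicle-treated 1 was the lowest for 16 members (32.7%), against 11.1% of all tested genes. The median log2 deviation of a member from its own mean was 0.0017, -0.038 and 0.18 with GC and -0.095, -0.050 and 0.052 with vehicle. Vehicle-treated 3 thus lay above both GC-treated 1 and GC-treated 2 in the members' median. Without GC-treated 3 the log2 fold change was 0.11 for Utp11, 0.095 for Rrp9, 0.12 for Utp18, 0.15 for Rrp8, 0.015 for Dkc1 and 0.020 for Ncl, and -0.12 for Utp20 and -0.029 for Nol8, each nearer to 0 than with all libraries by over 1.5-fold. The 60S assembly factors stood at 0.25 in GC-treated 3 and the RNA polymerase I subunits at 0.14.

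**Figure D3:**
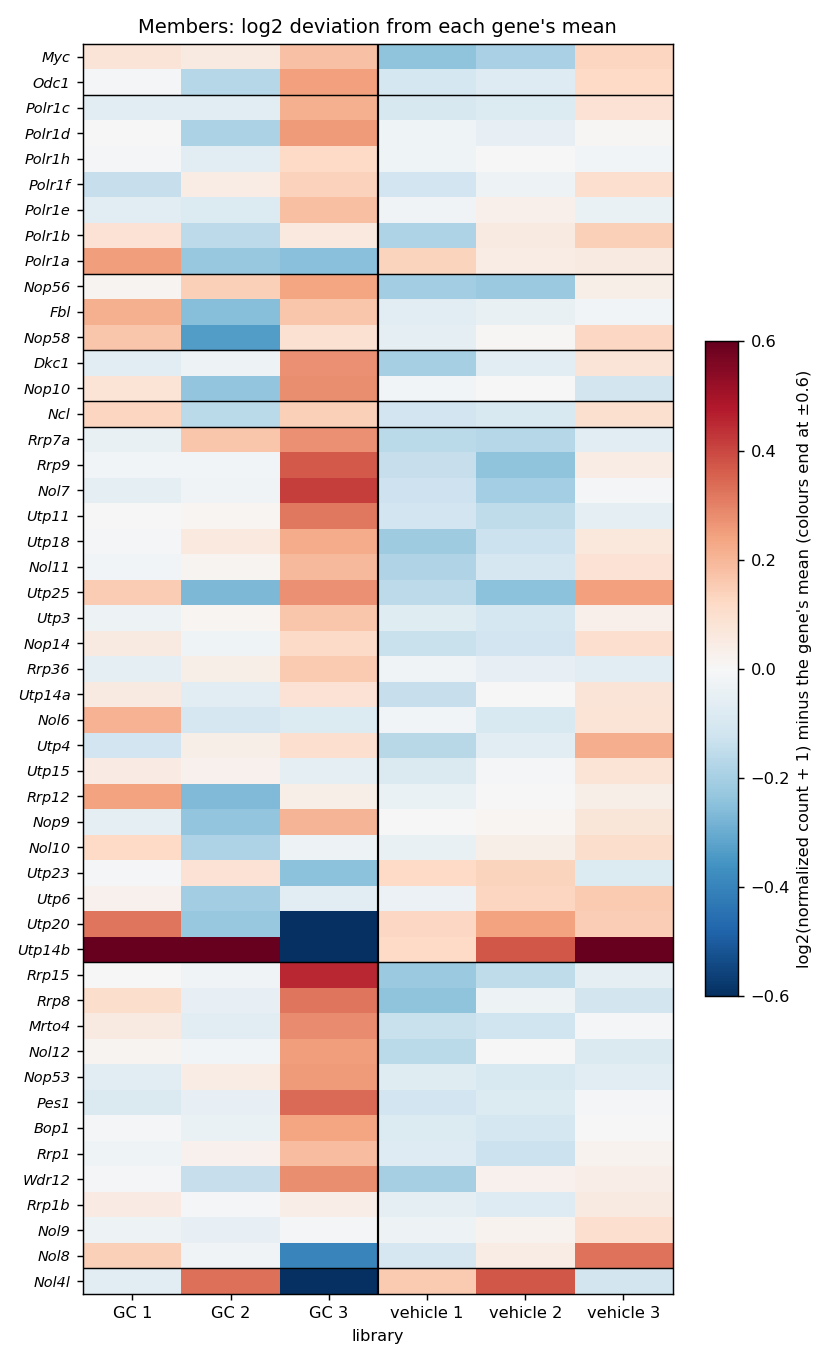
Log2 deviation of each tested member (rows, grouped by role) from its mean over the 6 libraries (columns), on the log2(normalized count + 1) scale. Red is above and blue below the mean, with colours ending at 0.6 either way. Most rows are darkest red in GC-treated 3. The rows of Utp20, Utp14b, Nol8 and Nol4l are the deepest blue there, followed by Polr1a and Utp23, and a few others are faintly blue.

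GC-treated 3 also differed from the other libraries by gene length. Over 11364 tested genes with an annotated coding sequence, its median log2 deviation fell from 0.18 for coding sequences under 750 bases to -0.62 for those of 6000 bases or more. In GC-treated 2 it went from 0.01 to -0.16, while in GC-treated 1 it went from -0.03 to 0.18 and in the vehicle-treated libraries from between -0.06 and -0.03 to between 0.12 and 0.26. The median log2 fold change of all tested genes ran from 0.09 in the shortest class to -0.40 in the longest. The members in their length classes had medians of 0.08, 0.14, 0.05 and -0.0092, with 7, 16, 20 and 5 members, and -0.34 for Utp20 alone in the longest, so the shortest class was not the highest. Across 49 members the log2 fold change and log2 coding length had a Pearson r of -0.39 and a Spearman rho of -0.48, and in GC-treated 3 the deviations had a Spearman rho of -0.59 with length. These are descriptions across genes of the same libraries, which are not independent replicates. Utp20, the longest member, stood at -0.61 in GC-treated 3, and Polr1a, at 5151 coding bases, at -0.25. The linear length trend was then taken out of each library, an alternative added after the data were seen. In that fit 35 of 49 members were above 0, against 46.6% of all tested genes. The members' median was 0.08, against -0.016, while 5 of the 7 RNA polymerase I subunits changed sign. The part of library quality in these differences was not tested.

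**Figure D4:**
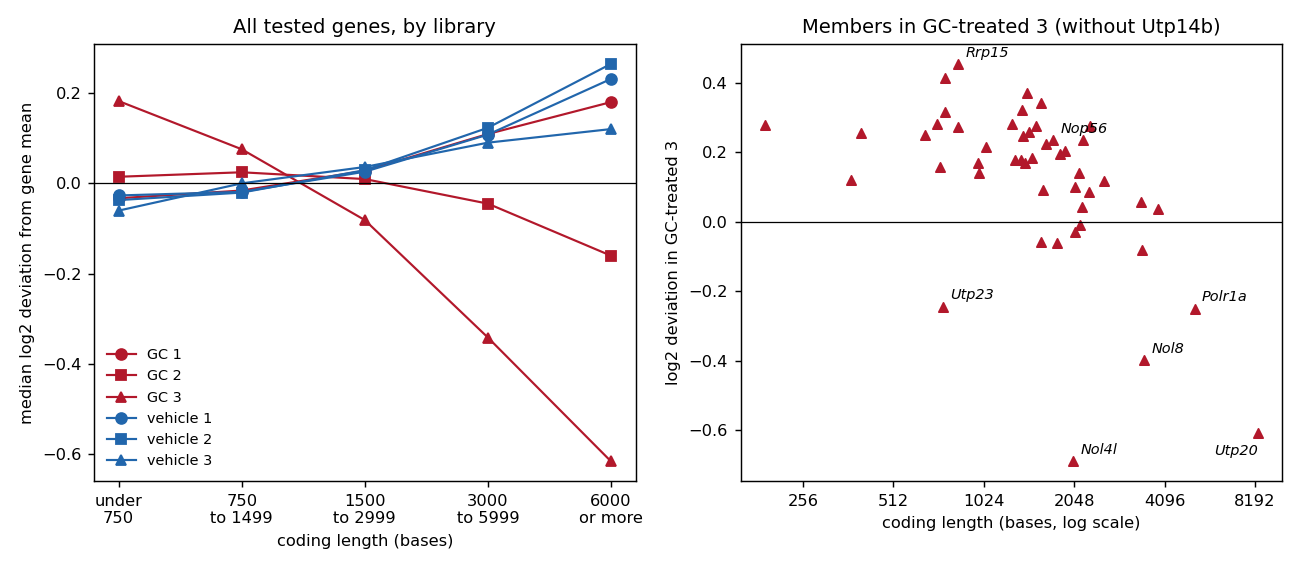
Left, median log2 deviation from the gene mean by coding length class for all tested genes, 1 line per library. Right, deviation of each member in GC-treated 3 against its coding length on a log axis, leaving out Utp14b, which had 0 reads there. GC-treated 3 falls from 0.18 to -0.62 over the length classes, and Utp20 and Polr1a are the longest members at -0.61 and -0.25.

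Other genes of the pathway, from lists that share no member with those above, were mostly above 0 in the steps of subunit assembly, where 48.5% of all tested genes were. Of 38 tested 40S maturation factors, 28 had log2 fold changes above 0, with a median of 0.08, and of 45 tested 60S maturation factors 36 did, with a median of 0.10. Both lists were highest in GC-treated 3, with median deviations of 0.17 and 0.16, and in both vehicle-treated 3, at 0.042 and 0.045, lay above GC-treated 1 and 2. Without GC-treated 3 the counts were 22 of 38 with a median of 0.0053 and 32 of 45 with a median of 0.041, against 50.2% of all tested genes above 0. None of either list passed the adjusted test, and at an unadjusted p under 0.05 there was 1 in the first, Ngdn, and 2 in the second, Ebna1bp2 and Zfp622. Ebna1bp2, a pre-60S factor, read 12420, 12679 and 14701 with GC and 10567, 9674 and 11461 with vehicle. All its GC-treated values lay above all vehicle-treated ones, with a log2 fold change of 0.33 (standard error 0.10, unadjusted p = 0.010, adjusted p = 0.62 from limma). Zfp622, which acts late on the 60S particle, read 5065, 5250 and 5355 with GC and 4336, 4460 and 4484 with vehicle, also apart, with a log2 fold change of 0.24 (standard error 0.08, unadjusted p = 0.019). In Zfp622 GC-treated 3 did not stand apart from the other GC-treated libraries.

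Eif6, which keeps the new 60S subunit from joining the 40S subunit, had a log2 fold change of 0.26, and the 40S factors Dimt1, a methyltransferase of the 18S rRNA, and Riok1, a late 40S kinase, had 0.30 and 0.21. Without GC-treated 3 these were 0.14, 0.20 and 0.20. The 13 tested subunits and cofactors of the RNA exosome, which trims precursor ends, all had log2 fold changes above 0, from 0.01 to 0.29, with a median of 0.14 and 0 at an unadjusted p under 0.05. Their median deviations were -0.04, 0.02 and 0.25 with GC and -0.11, -0.08 and -0.04 with vehicle, so that GC-treated 1 and vehicle-treated 3 were level, and without GC-treated 3 the list had 11 of 13 above 0 with a median of 0.083. Exosc4 stood at 0.29, or 0.17 without GC-treated 3, Exosc8 at 0.17 and Exosc9 at 0.16. In a list of 13 tested snoRNP assembly factors and partners 9 were above 0, with 0.26 for Nhp2, an H/ACA core protein. The lowest was -0.20 for Zmynd19, which was listed here without a well established place in snoRNP assembly. Without GC-treated 3 the list had 7 of 13 above 0, with 0.13 for Nhp2.

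A list of 8 regulators of rDNA transcription had 2 log2 fold changes above 0 and 6 below, with a median of -0.05. The initiation factors among them, Rrn3, Ubtf and Taf1a to Taf1d, ran from -0.07 to 0.14, and the lowest values belonged to Baz2a and Ttf1. Baz2a, a silencer of rDNA repeats, read 4388, 3648 and 2318 with GC and 4972, 4795 and 4132 with vehicle, and Ttf1, the transcription terminator, read 2891, 3082 and 2046 with GC and 3473, 3463 and 2686 with vehicle. GC-treated 3 was the lowest library for both, and in each gene a vehicle-treated library overlapped the GC-treated range. Their log2 fold changes were -0.47 (standard error 0.21, unadjusted p = 0.050, adjusted p = 0.62 from limma) and -0.28 (standard error 0.17), and without GC-treated 3 they were -0.21 and -0.093. Taf1a, a subunit of the selectivity factor SL1, had 0.14.

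In the MYC and MAX network 3 of 11 tested genes had log2 fold changes above 0, with a median of -0.14. Max, the obligate partner of MYC, read 4755, 2015 and 2846 with GC and 5311, 4931 and 4818 with vehicle. All GC-treated libraries lay below all vehicle-treated ones, although GC-treated 1 was close to vehicle-treated 3. For Max the log2 fold change was -0.74 (standard error 0.26, unadjusted p = 0.018, adjusted p = 0.62 from limma). Removing 1 library at a time gave -1.07 to -0.45, with -1.07 and an adjusted p of 0.040 from limma without GC-treated 1, and -0.45 without GC-treated 2. The fit without GC-treated 1 called 43 of 11501 tested genes lower, and 12.3% were lower at an unadjusted p under 0.05. Mxd4, an antagonist of MYC for MAX, had -0.33 and Mga -0.49, with the lowest value of each in GC-treated 3, and without that library they were -0.16 and -0.11. Without GC-treated 1, Mga was at -0.81.

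Polyamine genes, which stand beside Odc1, were divided, with 5 of 11 tested above 0. Azin1, an inhibitor of antizyme that spares ornithine decarboxylase from degradation, read 12563, 11869 and 9666 with GC and 14055, 15129 and 12734 with vehicle. Its groups did not overlap, and the log2 fold change was -0.30 (standard error 0.12, unadjusted p = 0.028, adjusted p = 0.62 from limma). Dohh, the last enzyme of hypusine synthesis, had 0.29, and Srm, spermidine synthase, had 0.29, and without GC-treated 3 they were 0.20 and 0.11. Azin1 was at -0.19 without that library.

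Marker lists were read on the same scale. Of 20 proliferation genes, 8 had log2 fold changes above 0, with a median of -0.10. At an unadjusted p under 0.05, 3 were lower, against 5.07% of all tested genes, and 0 were higher, against 2.12%. Groups did not overlap in 2 that were higher, Rrm2 and Mcm2, and in 3 that were lower, against 6.4% of all tested genes each way. Mki67, with the lowest log2 fold change of the list, read 40932, 24953 and 19416 with GC and 43158, 49759 and 36932 with vehicle. Of 10 CD8 T cell markers 9 were above 0, with a median of 0.10. Of 10 tested neutrophil markers 9 were above 0, with a median of 2.69. At an unadjusted p under 0.05, 5 of them were higher, against 2.12% of all tested genes, and the groups overlapped for all 10. Of 7 CD4 T cell markers 1 was above 0, with a median of -0.25. Above 0 were 2 of 10 monocyte and macrophage markers, 1 of 4 B cell markers, 1 of 4 erythroid markers and 3 of 6 NK cell markers. The neutrophil list was highest in GC-treated 2, then GC-treated 3 and vehicle-treated 3, and the members were highest in GC-treated 3, then vehicle-treated 3, with GC-treated 2 at -0.038. The part of these cells in the members' values was not tested.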

How the data were processed

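Bulk RNA-Seq of 6 libraries of sorted donor CD8+ T cells was used, 3 GC-treated and 3 vehicle-treated, grouped by the sample labels alone. The authors aligned reads to GRCm39 with STAR, counted them per gene with summarizeOverlaps and Gencode M26, and deposited a normalized signal, the counts divided by each library's DESeq2 size factor. The sources used here give no version of these tools, and the kits do not mark strand. Dividing each column by the worth of 1 read gave whole numbers (100% within 0.001 of a read), so reads were recovered. In GC-treated 2 a read is worth nearly 1 and this test is weak.

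The 11649 genes that reached a value of 10 in 3 or more libraries were fitted with limma 3.58.1 with a mean-variance trend on log2(value + 1), with Benjamini-Hochberg adjustment over all of them and a threshold of 0.05. Fold changes are on this scale, where the pseudocount can understate those of low genes. With a 0 in 1 library they can also be larger than those of DESeq2 and edgeR, as for Utp14b. Recovered reads were also tested with edgeR 4.0.16 and DESeq2 1.42.0 in R 4.3.3. An exact permutation test of 3 against 3 libraries cannot give a p under 0.1. The scripts were tested on simulated data. Depth was 60949593 to 76888118 reads, which bounds counting error only.

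The members and all gene lists were chosen with earlier results of these data known. Values per library are given for members the rule names in full, the RNA polymerase I subunits, the 10 smallest p, the highest and lowest fold change of each role and members below the filter; of each pathway list the 3 smallest p are named. Gene positions, exons and coding lengths follow Gencode M39 on GRCm39, which is newer than the release the authors used, and promoter sequences from RefSeq on GRCm38.p6. Alternatives were other pseudocounts, filters, scaling, tools, a replicate block, leaving out each library and removal of the coding-length trend. The last, the count of members above 0 under each alternative and the pathway lists without each library were added after seeing the data.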

Additional observations from a re-analysis of the deposited data

How the results depend on the processing

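No member passed the adjusted test under any alternative run. Of members at an unadjusted p under 0.05, 2 were higher with all libraries, 0 in limma without a trend (1.98% of all genes) and 4 in DESeq2 (2.41%). Over all genes, limma without a trend called 1 lower and DESeq2 called 2 lower, against 0. With each library left out in turn there were 0 to 4 members higher and 0 to 2 lower at that unadjusted p, 4 to 17 members not overlapping and higher and 0 to 3 lower, 26 to 39 members above 0, and 0 to 2 genes called higher and 0 to 43 called lower over all genes. Over all genes the same refits gave 0.671% to 8.4% higher and 1.66% to 12.3% lower at that p, and 9.61% to 19.8% not overlapping and higher and 9.44% to 19.8% lower. The 43, and the 4 members higher (8.4% of all genes) and 2 lower (12.3%), came without GC-treated replicate 1, the 17 without vehicle-treated replicate 3 (13.1%), and the 26 without GC-treated replicate 3, where a group keeps only 2 libraries. The cause was not tested.

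With the replicate number as a block 0 members were called higher and 0 lower, and 3 passed an unadjusted p of 0.05, all higher, against 2.04% of all genes higher and 6.4% lower. Same-numbered libraries deviated with correlations of 0.063, -0.14 and 0.13, which cannot decide whether the numbers pair the samples. The sample labels do not state a pairing. The block changed no other call.

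Signs near 0 turned. With the coding-length trend removed, an alternative added after the data were seen, log2 fold changes were -0.14 for Polr1d, -0.020 for Polr1f, -0.17 for Polr1h, -0.21 for Nop10, 0.048 for Polr1a and 0.13 for Polr1b. Leaving out 1 library gave -0.071 to 0.14 for Odc1, -0.0021 to 0.23 for Fbl, -0.00023 to 0.21 for Pes1, -0.029 to 0.18 for Wdr12, -0.070 to 0.15 for Polr1d, -0.033 to 0.11 for Polr1f, -0.023 to 0.069 for Polr1h, -0.063 to 0.066 for Polr1e, -0.034 to 0.12 for Polr1c, -0.10 to 0.067 for Polr1b, -0.15 to 0.10 for Nop58, -1.79 to 0.49 for Utp14b and -0.036 to 0.22 for Nop10. Of 1018 values recomputed, 976 kept their direction and side of the threshold or, for counts and medians, stayed within a set tolerance. That tolerance was wide. It took in the members' median of 0.02 against 0.07, and the 26 against 37 members above 0, without GC-treated 3.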
